A study of Mus musculus with 2 samples.

Results

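The Max network is a family of transcription factors that meet on the shared partner Max. Its 8 members examined here were Myc, Mycl and Mycn, the Myc proteins; Max; Mxd1, Mxi1 and Mnt, the antagonists of Myc; and Mga, a large Max partner that also has a T-box. They were taken by gene symbol out of 31053 genes, and all 8 had UMIs (unique molecular identifiers, each standing for 1 captured RNA molecule) in both libraries. The RNA of single cells was read from tongue tumours of C57BL/6 wild-type mice, in which the carcinogen 4NQO (4-nitroquinoline 1-oxide) had produced head and neck squamous cell carcinoma (HNSCC). The 2 groups then had 10 days of treatment, with JQ1, a small molecule that displaces BET proteins from acetylated histones, or with control. Each group had 1 library, and the number of mice behind a library, their age and the control substance are not stated in the sources used. No value below therefore has a replicate and no test was made, and every interval is a 95% interval for counting error alone.

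Myc binds DNA only as a pair with Max, most tightly at the E-box CACGTG, and recruits histone acetyltransferases that raise transcription of genes for ribosome production, nucleotide synthesis and growth. Mxd1, Mxi1 and Mnt compete for Max and for the same sites and recruit Sin3 repressor complexes, and in squamous epithelium Mxd1 is known as a gene of differentiating cells while Myc is known from the basal layer. Transcription of Myc is a well-known target of BET inhibitors in blood cancers, whereas its response in epithelial tumours varies.

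The control library held 9754 barcodes and the JQ1 library 16233, of which 8150 and 14044 passed the filters, at a median of 11302.5 and 3879 UMIs per cell. The libraries shared 40 barcodes, 28 of them kept in both. Cells were assigned to a class by counting detected marker genes, which gave 8 classes with at least 50 cells in each library. In the order control, JQ1 these were keratinocytes (5341, 1552), gland cells (105, 1242), fibroblasts (782, 4541), endothelial cells (482, 2024), mural cells, which are pericytes or smooth muscle (138, 668), T cells (170, 283), a joint class of macrophages, monocytes or dendritic cells (110, 231) and neutrophils (461, 633). Schwann cells (22, 705) and erythroid cells (0, 184) were adequately filled in the JQ1 library alone, and 524 control and 1942 JQ1 cells met no gate. The keratinocyte gate also took in 75 control and 108 JQ1 cells of a duct-type cluster high in Cyp2f2, and 46 control and 48 JQ1 keratinocytes stood at its limit. No step separated tumour from normal epithelium. The mix of keratinocytes differed between the libraries: the Krt15 (basal), Krt13 (suprabasal) and Krt16 (stress-type) subtypes held 1109, 696 and 1438 control and 659, 342 and 300 JQ1 cells, whereas the Krt42 and Stmn2 subtypes held 726 and 861 control but only 17 and 14 JQ1 cells. The other 511 control and 220 JQ1 keratinocytes took no subtype.

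The members are protein-coding genes on 7 chromosomes (GRCm38/mm10, GENCODE vM21). Myc spans chr15:61985391-61990374 on the plus strand, Mycl chr4:122995652-123002485 (plus) and Mycn chr12:12936093-12941914 (minus). Max spans chr12:76937269-76962201 (minus), Mxd1 chr6:86647042-86669161 (minus), Mxi1 chr19:53310518-53375810 (plus), Mnt chr11:74830920-74845725 (plus) and Mga chr2:119897228-119969581 (plus). Mxi1 overlaps Gm10197, a gene of the opposite strand that the files also list, and whether this affects Mxi1 counts was not tested. The RefSeq promoter set (GRCm38.p6, from 250 bases before to 50 after the start) covered 7 members. It had no entry for Myc, whose promoter was therefore not searched. CACGTG, which reads the same on both strands, occurred in the promoters of 2 members, Mnt and Max. The motif was present in 7.15% of all 32851 RefSeq promoters and for 8.09% of the 27025 genes that have one. Both stretches are given 5′ to 3′ on the strand of the gene with the E-box in capitals, since Mnt was the antagonist whose ratio between the libraries was most alike over the keratinocyte subtypes and Max is the common partner. The Mnt stretch is chr11:74830724-74830923, with the E-box starting 123 bases before the RefSeq start of transcription. The Max stretch is chr12:76962234-76962348, with an E-box that straddles the RefSeq start, from 3 bases before it. The RefSeq starts differ from the ends of the GENCODE spans above, and the Max stretch lies wholly outside the span given for Max. A match describes the letters of these windows and not binding.
Mnt: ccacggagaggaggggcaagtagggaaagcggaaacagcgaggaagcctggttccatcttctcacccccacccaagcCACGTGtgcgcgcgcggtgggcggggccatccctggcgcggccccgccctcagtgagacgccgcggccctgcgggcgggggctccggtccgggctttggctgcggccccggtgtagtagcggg
Max: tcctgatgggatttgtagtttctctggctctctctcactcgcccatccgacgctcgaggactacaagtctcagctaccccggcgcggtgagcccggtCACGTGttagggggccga

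Levels are given in CPM, the UMIs of a gene relative to all UMIs of the class, which allows 1 gene to be compared between classes but not different genes with each other. Myc was widespread outside the myeloid cells. In the control library its level was highest in endothelial cells (209 CPM), followed by mural cells (161), fibroblasts (152), keratinocytes (109) and T cells (104), then the macrophage, monocyte or dendritic class (49.1), gland cells (46.1) and neutrophils (6.29, from 5 UMIs). Intervals of neighbours overlapped among the endothelial, mural and fibroblast values, between keratinocytes and T cells, and between the macrophage class and gland cells. Keratinocytes were thus not the class highest in Myc CPM: the endothelial level was 1.92 times theirs (1.74 to 2.11). CPM is a share and not an amount per cell. In control, 5341 keratinocytes held 11113 Myc UMIs and 482 endothelial cells 451, at median depths of 17287 and 3130.5 UMIs. In the JQ1 library Schwann cells (196 CPM) and endothelial cells (194) stood highest, mural cells (160), keratinocytes (142) and fibroblasts (136) followed, and T cells (68.8), the macrophage class (36.0), gland cells (28.9) and neutrophils (13.3) were low. After every cell was thinned to 1000 UMIs, a Myc UMI was seen in 11.4% of control keratinocytes (10.6 to 12.3) and 14.1% of JQ1 keratinocytes (12.3 to 15.9), against 1.01% and 0.520% of neutrophils. Unthinned, 65.9% and 59.0% of keratinocytes had one, at median depths of 17287 and 11575.5 UMIs, against 1526 and 1931 UMIs in neutrophils.

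Mycl and Mycn had few UMIs in most classes. Mycl, a Myc paralogue known from neuroendocrine tumours and dendritic cells, had 12.3 and 10.6 CPM in the macrophage, monocyte or dendritic class of control and JQ1 and 8.71 and 17.0 CPM in keratinocytes. It was under 3 CPM in gland cells, fibroblasts and endothelial cells of both libraries, and mural cells, T cells and neutrophils had 0 Mycl UMIs. Mycn, the paralogue of neuroblastoma and of embryonic progenitors, had 7.40 and 6.72 CPM in endothelial cells, from 16 and 68 UMIs, and 1.28 and 3.94 CPM in fibroblasts, from 4 and 85 UMIs. Mural cells had 3.28 and 3.11 CPM, and Schwann cells of JQ1 4.24 CPM. In keratinocytes Mycn had 0.578 and 0.871 CPM, which is too little for a ratio by the limit of 10 CPM used here. T cells had 4 Mycn UMIs in control (9.03 CPM, 2.46 to 23.1) and 0 in JQ1. The Mycn intervals of neighbouring classes overlapped throughout the control order and among the first 4 classes of JQ1.

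Max and Mxd1 were highest in neutrophils, where Myc was lowest. Mxd1 had 1396 CPM in control neutrophils and 1379 CPM in JQ1 neutrophils, 45.7 times (42.6 to 48.9) and 43.1 times (39.6 to 46.9) the keratinocyte levels of 30.6 and 32.0 CPM. At 1000 UMIs per cell, 67.8% of control and 71.2% of JQ1 neutrophils had an Mxd1 UMI, against 3.28% and 3.51% of keratinocytes. The macrophage, monocyte or dendritic class had 211 and 221 CPM of Mxd1 and T cells 185 and 199 CPM, with overlapping intervals. Of 3 genes taken as neutrophil genes (Il1r2, Trem1 and Clec4e), the median in the macrophage class was 5.27% of the neutrophil level in control (1.17 to 86.4) and 21.1% in JQ1 (4.64 to 26.3), and in T cells 0.258% (0 to 12.7) and 0.391% (0.137 to 23.0). Monocytes and macrophages are known to make some of these genes themselves, and the part of neutrophil RNA in the Mxd1 level of both classes was not tested. Fibroblasts, endothelial cells and mural cells were between 32.8 and 63.4 CPM. Max had 122 and 109 CPM in neutrophils, 3.20 times the keratinocyte level in each library, and between 25.4 and 57.9 CPM in the other 7 classes. Cells that met no gate had 153 and 80.3 CPM of Mxd1.

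The other antagonists and Mga were spread more evenly. Mxi1, which like Mxd1 recruits Sin3, was highest in T cells (94.8 and 102 CPM). Mnt, the antagonist that is present in resting and dividing cells alike, lay between 6.99 and 31.3 CPM over the 8 classes of both libraries. Mga, also a subunit of a variant Polycomb complex, was highest in fibroblasts at 85.2 and 81.7 CPM, 3.27 times (2.87 to 3.71) and 2.10 times (1.93 to 2.28) the keratinocyte level. These leads were not clear of the next class: the intervals of Mxi1 in T cells and the macrophage class overlapped in control, as did those of Mga in fibroblasts and mural cells, and the class highest in Mnt was mural in control and fibroblast in JQ1.

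**Figure D1:**
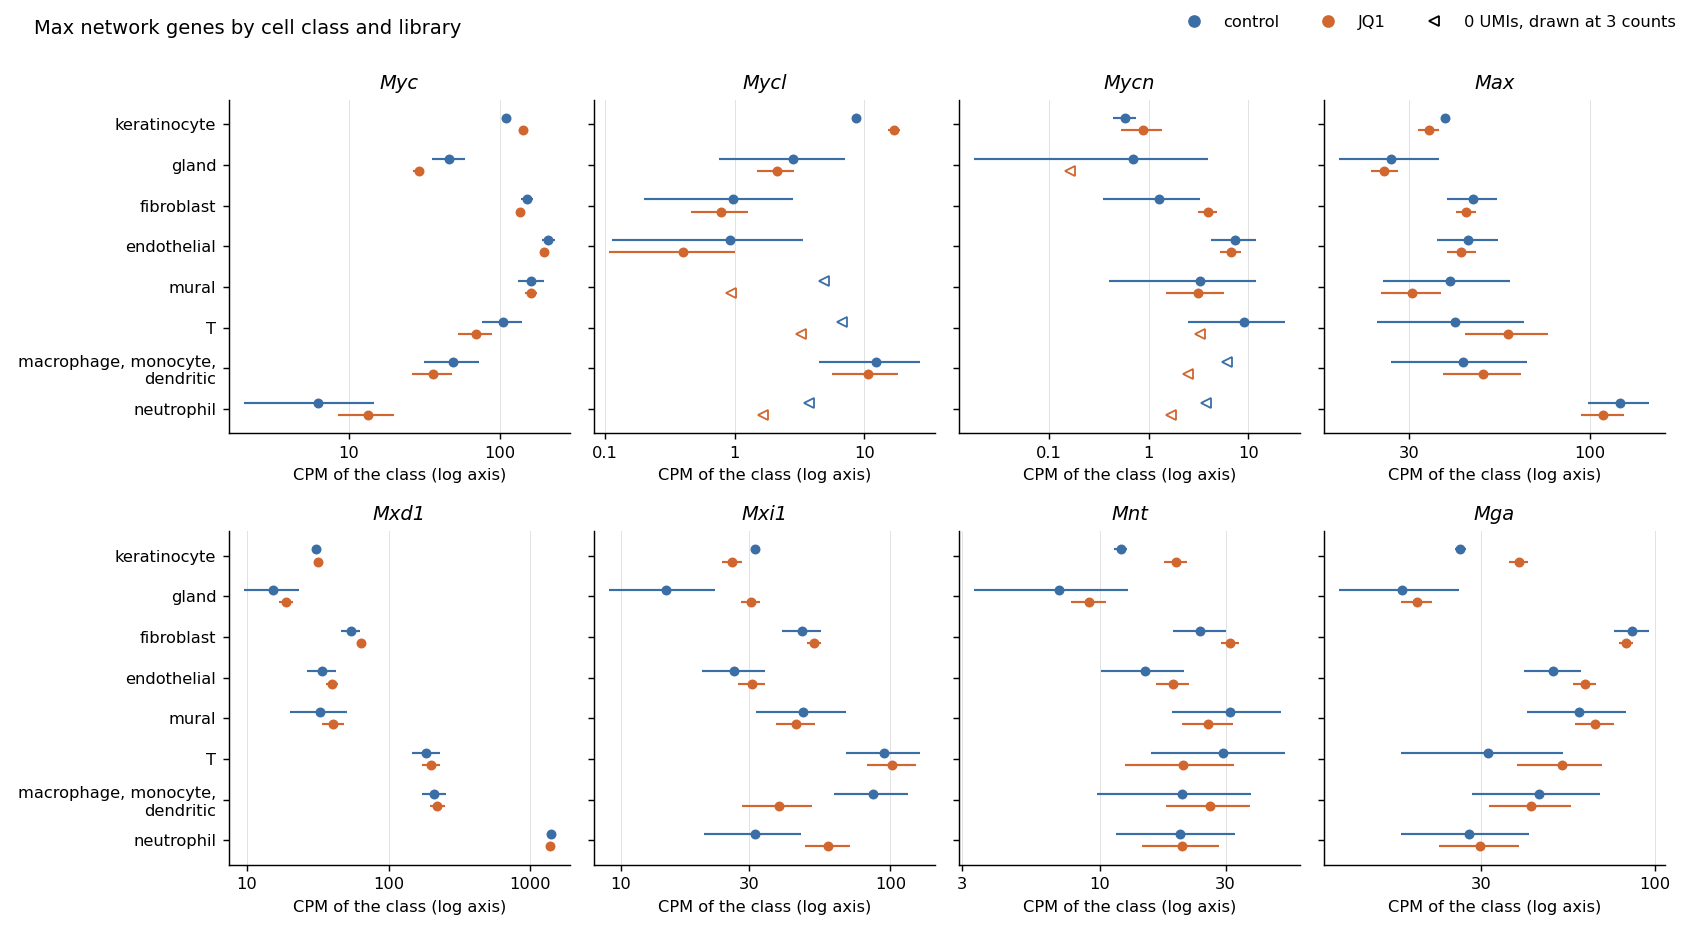
Level of each member in the 8 cell classes, in CPM of the class on a log axis with its own range in every panel, for the control and the JQ1 library (1 point each). Bars are 95% Poisson intervals and open triangles stand for 0 UMIs, drawn at the level of 3 counts; Mxd1 reaches 1396 and 1379 CPM in neutrophils, where Myc has 6.29 and 13.3 CPM.

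The number of Myc UMIs per Mxd1 UMI sets the activator against an antagonist in the same cells and is compared here between classes and libraries only. It was 3.56 (3.42 to 3.70) in control keratinocytes and 4.45 (4.10 to 4.83) in JQ1 keratinocytes. Endothelial cells had 6.18 and 4.86, the highest of the 8 classes, with intervals that overlapped those of mural cells (4.90 and 3.92). In JQ1 the endothelial interval (4.37 to 5.43) also overlapped that of keratinocytes. T cells had 0.561 and 0.346, the macrophage, monocyte or dendritic class 0.233 and 0.163, and neutrophils 0.00450 and 0.00963. In each library all 3 immune classes lay below all 5 others. Within keratinocytes the ratio differed by subtype: 11.1 in Krt15, 5.78 in Krt13, 3.02 in Krt42, 2.69 in Krt16 and 2.01 in Stmn2 cells of the control library. In the JQ1 library it was 7.01 in Krt15, 3.58 in Krt13 and 2.85 in Krt16 cells. The Krt15 and Krt13 values of JQ1 were lower than those of control, with Myc itself 1.0-fold and 1.02-fold in these subtypes and an Mxd1 level in Krt13 cells whose ratio turned with the weighting of cells (given with the Mxd1 results), while the Krt16 intervals overlapped (2.51 to 2.89 and 2.41 to 3.39).

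**Figure D2:**
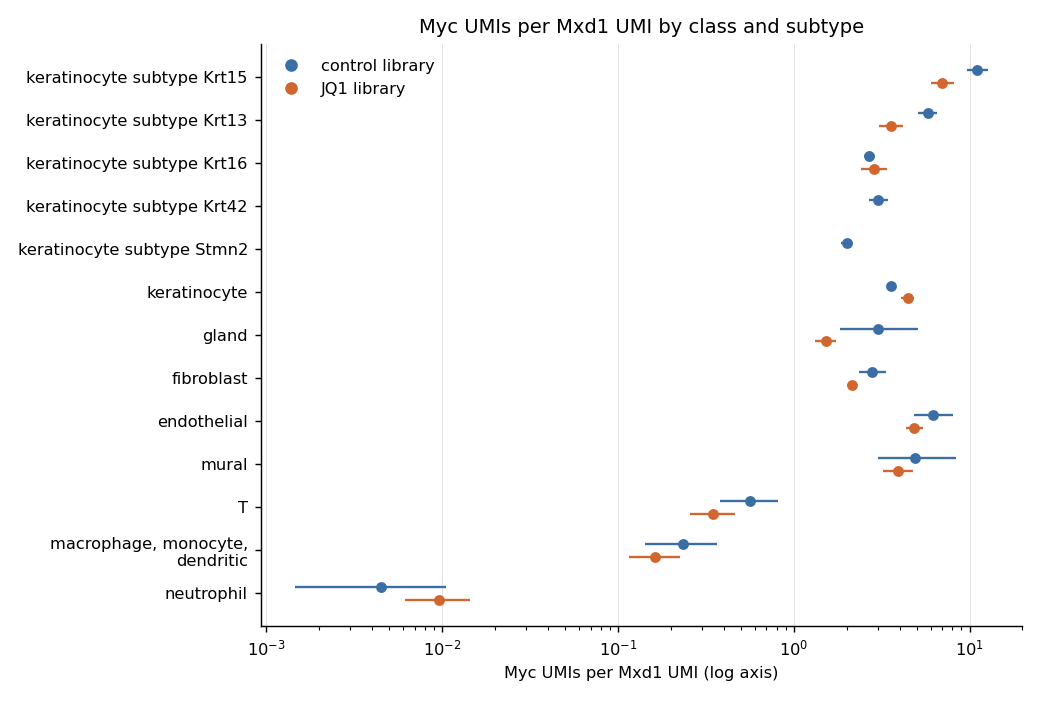
Myc UMIs per Mxd1 UMI (log axis) in keratinocyte subtypes and in the 8 cell classes, for each library with 95% intervals; groups under 50 cells are not drawn. Values run from 11.1 in control Krt15 keratinocytes to 0.00450 in control neutrophils, and the 3 immune classes lie below the other classes of the same library.

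Within the keratinocytes of the control library, Krt15 cells were highest in Myc and lowest in Mxd1, but the orders were not opposite throughout, since Krt42 cells were lowest in Myc and also low in Mxd1. Myc had 174 CPM in Krt15 cells, 141 in Krt13, 94.7 in Krt16, 88.6 in Stmn2 and 73.8 in Krt42 cells, so the basal-type level was 1.84 times (1.74 to 1.94) that of the Krt16 subtype. Mxd1 was lowest in Krt15 cells at 15.8 CPM, had 24.4 CPM in both Krt13 and Krt42 cells, 35.2 in Krt16 and 44.0 in Stmn2 cells. Mycl went with Myc in that it had 17.0 and 16.9 CPM in Krt15 and Krt13 cells against 4.88, 7.15 and 4.91 in Krt16, Krt42 and Stmn2 cells. Mxi1 was highest in Krt42 (42.1 CPM) and Krt16 cells (37.8) and lower in Stmn2 (29.8), Krt13 (22.4) and Krt15 cells (21.6). Mnt ran only from 10.4 to 15.1 CPM, Mga from 22.7 to 32.1 and Max from 31.1 to 48.7. Dividing cells were a further axis. Cells with at least 3 of 14 S, G2 or M phase markers made up 34.3% of control and 42.6% of JQ1 keratinocytes, a share that also depends on depth. In control Mxd1 had 15.3 CPM in them and 40.6 CPM in the other keratinocytes, 0.376 times (0.344 to 0.411), and in JQ1 26.3 and 38.8 CPM, 0.679 times (0.583 to 0.790). Myc differed less, with 96.7 and 117 CPM in control and 147 and 137 CPM in JQ1.

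Across all keratinocytes, Myc RNA was not lower in the JQ1 library: its level was 109 and 142 CPM, 1.31-fold higher (1.26 to 1.36). This difference was not present within the 3 subtypes with at least 50 cells in each library. Krt15 cells had 174 and 175 CPM (1.0-fold, 0.941 to 1.07), Krt13 cells 141 and 144 (1.02-fold, 0.939 to 1.12) and Krt16 cells 94.7 and 101 (1.07-fold, 0.974 to 1.18). With size factors that set the median gene of each subtype to 0, the log2 ratios of Myc were -0.14, -0.15 and -0.07. Given equal weight in both libraries, these 3 subtypes had a log2 ratio of 0.037. The class as a whole, which also holds the Krt42, Stmn2 and no-subtype cells, had 0.39. The mix of subtypes also differed between the libraries. The Krt42 and Stmn2 cells, low in Myc in control, were 726 and 861 in control and 17 and 14 in JQ1. Those of JQ1 held 25 and 18 Myc UMIs. Keratinocytes of no subtype held 805 Myc UMIs of 7272993 UMIs in control and 281 of 2224323 in JQ1. The part of the mix in the class ratio was not tested.

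**Figure D3:**
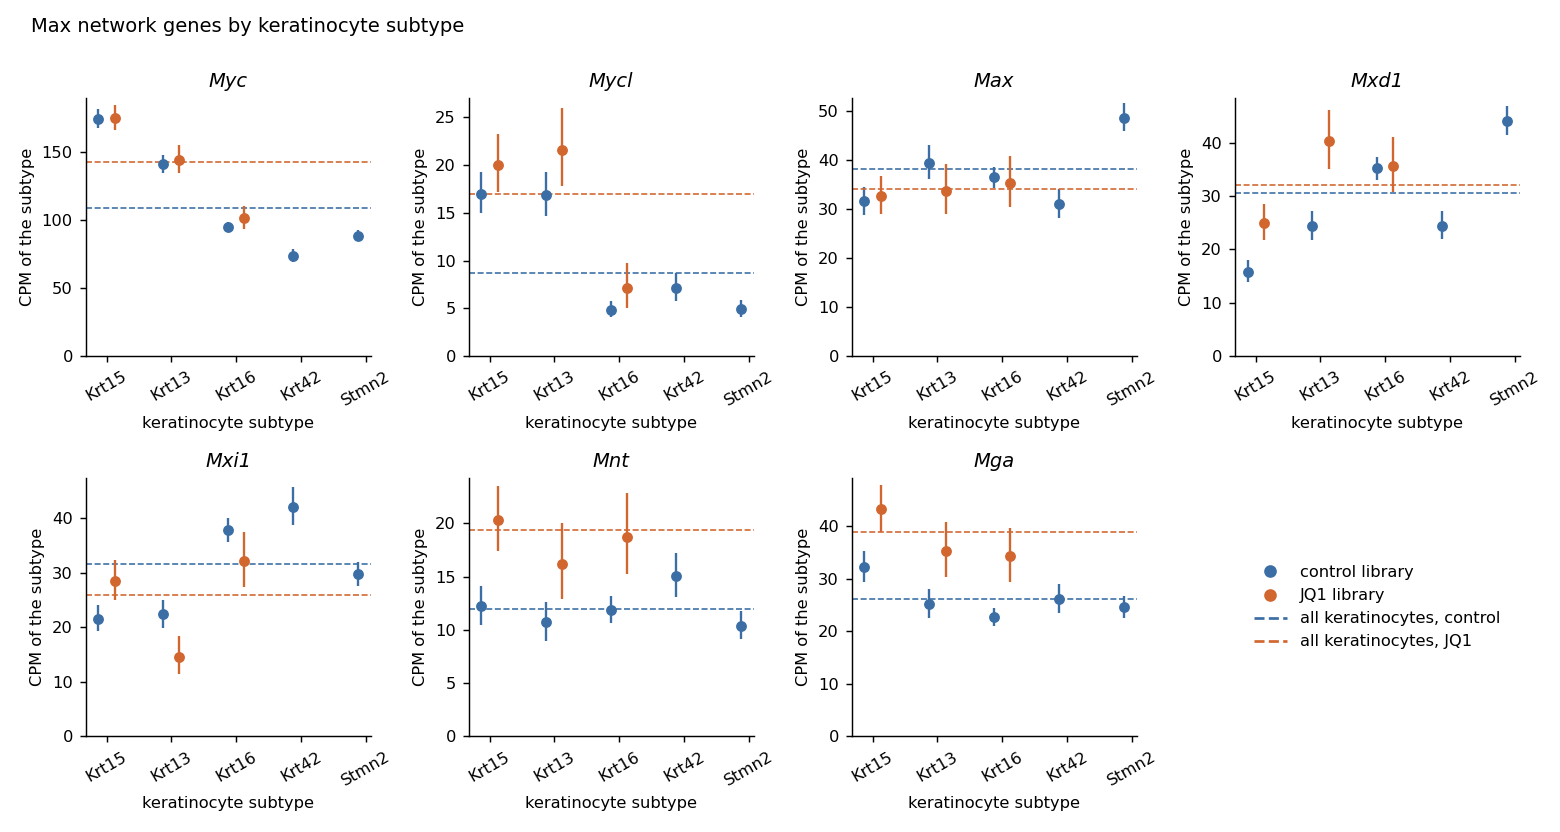
Level of 7 members (CPM of the subtype, axes from 0) in keratinocyte subtypes of the control and JQ1 libraries with 95% Poisson intervals; dashed lines are the levels over all keratinocytes and groups under 50 cells are not drawn. Myc has 174 and 175 CPM in Krt15 cells although the dashed lines lie at 109 and 142 CPM.

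Of the 7 members measured in keratinocytes (at least 20 UMIs and 10 CPM in the higher library), 2 were at least 1.5-fold higher in JQ1, Mycl and Mnt, and 0 were lower. Over all measured genes of the class 12.5% were that much higher and 4.34% lower, and the median log2 ratio was 0.15, so 2 of 7 is to be read against that. Mycl had 8.71 and 17.0 CPM (1.95-fold, 1.72 to 2.20) and passed the limit of 10 CPM through the JQ1 library alone. Within Krt15 cells it had 17.0 and 20.1 CPM (1.18-fold, 0.966 to 1.44), within Krt13 cells 16.9 and 21.6 (1.28-fold, 1.01 to 1.62), and with equal weight of subtypes a log2 ratio of 0.33. Mycl thus resembled Myc in that the class ratio was larger than those within Krt15 and Krt13 cells.

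Mnt and Mga, by contrast, were higher in CPM in JQ1 within each subtype. Mnt had 12 and 19.4 CPM over all keratinocytes (1.62-fold, 1.44 to 1.81). Its level was 12.2 and 20.3 CPM in Krt15 cells (1.66-fold, 1.34 to 2.06), 10.7 and 16.2 in Krt13 cells (1.51-fold, 1.14 to 1.99) and 11.9 and 18.8 in Krt16 cells (1.58-fold, 1.25 to 1.99). Mga had 26.0 and 38.9 CPM over the class (1.49-fold, 1.38 to 1.62) and was 1.34-fold, 1.40-fold and 1.51-fold higher in Krt15, Krt13 and Krt16 cells, with ratio intervals that all lay above 1. The shares of cells with a UMI were less clear, with overlapping intervals in every subtype at 1000 and 2000 UMIs per cell. At 1000 UMIs Mnt in Krt16 cells (1.82% and 1.79%) and Mga in Krt13 cells (3.22% and 3.15%) were not higher in JQ1, while the other shares were. At 2000 UMIs all were higher, Mga in Krt16 cells only slightly (6.04% and 6.15%). Size factors that set the median gene to 0 lowered all log2 ratios of the class by 0.15, which left Mnt at 0.54 and under 1.5-fold. They also took Mnt in Krt13 (0.41) and Krt16 cells (0.49) and Mga in Krt16 cells (0.43) under 1.5-fold, and kept Mnt in Krt15 cells at 0.59.

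Mxd1 showed the reverse of Myc, with no difference over the class but one in 2 subtypes. It had 30.6 and 32.0 CPM over all keratinocytes (1.05-fold, 0.963 to 1.14). In Krt15 cells it had 15.8 and 25 CPM (1.58-fold, 1.31 to 1.91), in Krt13 cells 24.4 and 40.3 CPM (1.65-fold, 1.38 to 1.97) and in Krt16 cells 35.2 and 35.6 CPM (1.01-fold, 0.861 to 1.18). The Krt13 value depended on how cells were weighted: with every cell given equal weight its log2 ratio was -0.10, and the share of Krt13 cells with an Mxd1 UMI had no clear order. That share was 3.37% in control (2.15 to 5.01) and 1.89% in JQ1 (0.698 to 4.07, from 6 cells) at 1000 UMIs per cell, and 3.76% (2.45 to 5.50) and 5.15% (2.91 to 8.36) at 2000 UMIs, with overlapping intervals at both depths. The Krt15 log2 ratio was 0.66 and kept its sign under the 9 alternatives run for it, though size factors left it, at 0.52, under 1.5-fold, as they did the Krt13 value at 0.54. Whether the subtypes differ in their response was not tested. Mxi1 had 31.6 and 25.9 CPM over the class (0.821-fold, 0.749 to 0.898), with 1.32-fold in Krt15, 0.655-fold in Krt13 and 0.850-fold in Krt16 cells, and Max had 38.1 and 34.1 CPM (0.894-fold, 0.826 to 0.968). At 1.5-fold, the members called higher were 2 of 7 in Krt15 (Mxd1, Mnt; 10.8% of all measured genes), 2 of 7 in Krt13 (Mxd1, Mnt; 16.7%) and 2 of 6 in Krt16 cells (Mnt, Mga; 12.7%). Those called lower were 0, 1 (Mxi1) and 0, against 1.82%, 3.23% and 4.14% of all measured genes.

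**Figure D4:**
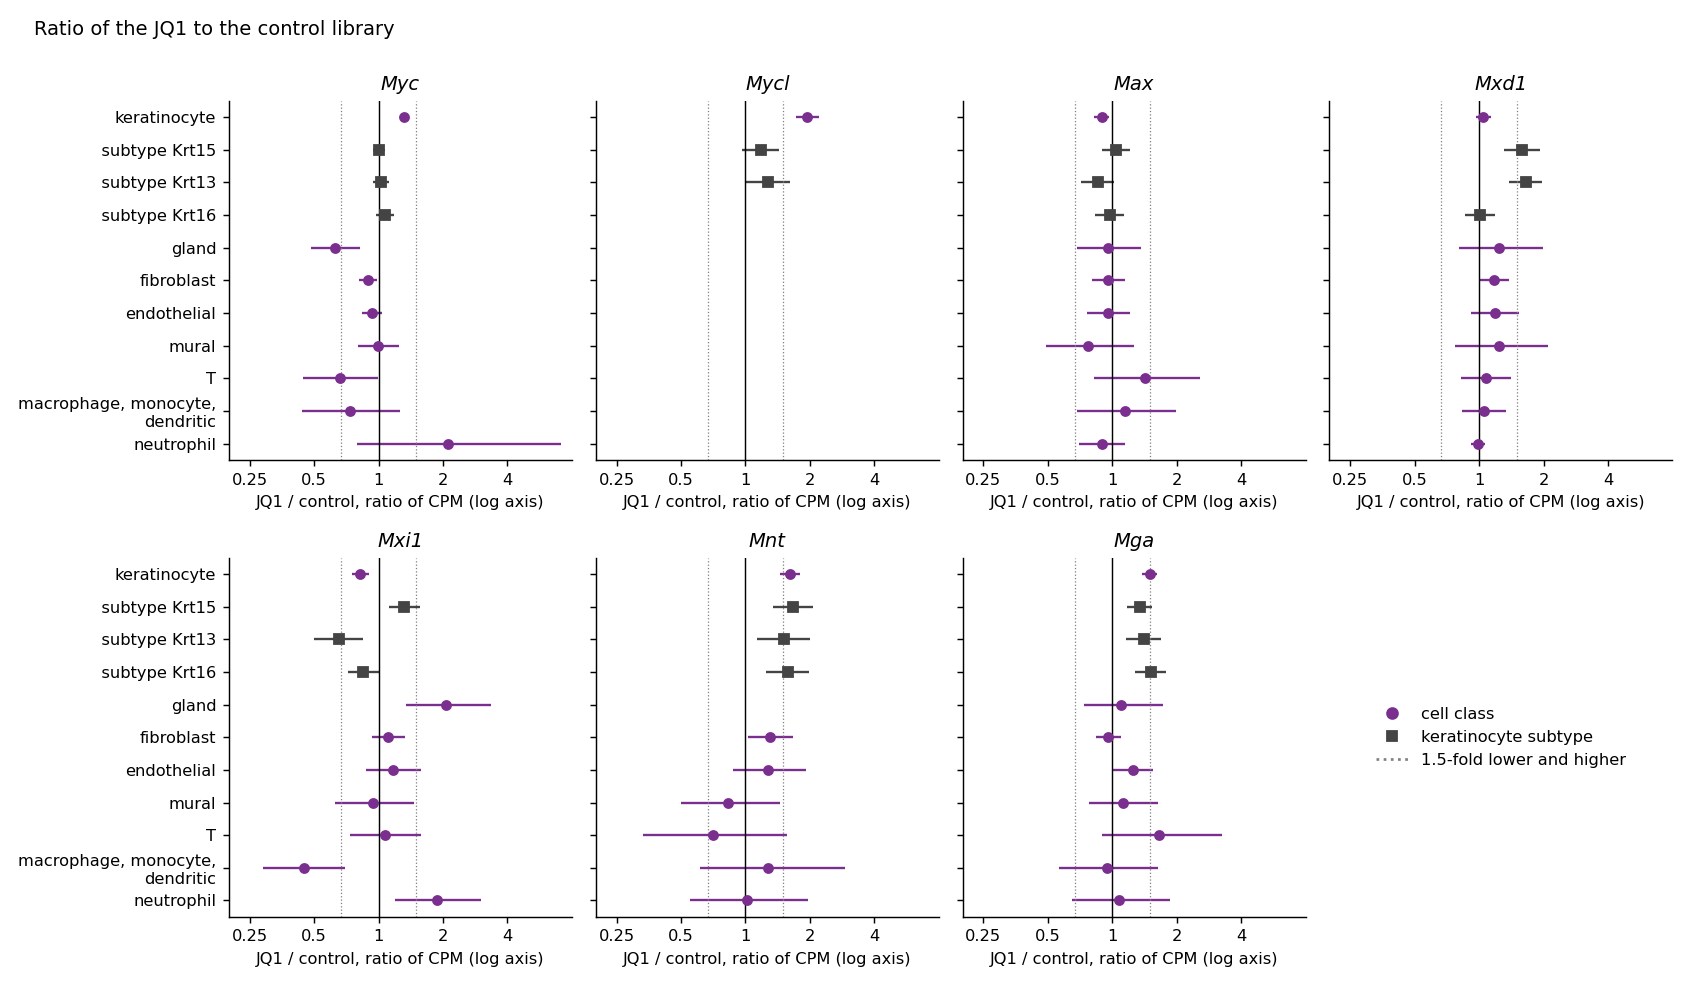
Ratio of the JQ1 to the control library for 7 members (log axis) in each cell class and in 3 keratinocyte subtypes, with 95% exact conditional intervals; members under the measurement limit in a group are not drawn. Myc lies at 1.0, 1.02 and 1.07 in the Krt15, Krt13 and Krt16 subtypes, and Mnt between 1.51 and 1.66.

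Outside the keratinocytes Myc was lower in JQ1 in gland cells and T cells. Gland cells had 46.1 and 28.9 CPM (0.626-fold, 0.484 to 0.822), but the control value came from 105 cells and 66 UMIs, 42 of these cells (and 287 of 1242 in JQ1) stood at the limit of the gate, and with the stricter cell filter the log2 ratio was -0.35 in place of -0.67. T cells had 104 and 68.8 CPM (0.662-fold, 0.446 to 0.991), a value at the edge of 1.5-fold that fell inside it under several alternatives. Size factors, which shift gland cells by 0.40 and neutrophils by 0.24 on the log2 scale, gave -1.08 for Myc in gland cells. Joint clustering of both libraries gave a gland cluster of 63 control and 1172 JQ1 cells and another of 143 and 359. The mix of gland cells thus differed between the libraries, and its part in the gland ratios was not tested. The 4 keratinocyte genes stood at a median of 2.87% of their keratinocyte level in control gland cells (0.524 to 14.2) and 1.72% in JQ1 (0.338 to 3.68), and their part in the Myc values was not tested. The stromal classes differed little: fibroblasts had 152 and 136 CPM of Myc (0.895-fold, 0.811 to 0.988), endothelial cells 209 and 194 (0.931-fold, 0.840 to 1.03) and mural cells 161 and 160 (0.995-fold, 0.800 to 1.25). Of 6 members measured in each stromal class, 0 were 1.5-fold higher or lower, against 6.04% and 2.67% of genes in fibroblasts, 8.32% and 3.16% in endothelial cells and 20.1% and 7.6% in mural cells. In gland cells 1 of 5 was higher (Mxi1; 36.5% of genes) and 1 lower (Myc; 5.29%), and in T cells 1 of 6 was higher (Mga; 17.2%) and 1 lower (Myc; 9.17%). The T cell interval for Mga, 0.899 to 3.26, held 1.

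Mxi1 had the widest scatter of ratios between classes. In gland cells it had 14.7 and 30.3 CPM (2.06-fold, 1.34 to 3.36), in neutrophils 31.4 and 58.7 CPM (1.87-fold, 1.2 to 3.01), and in the macrophage, monocyte or dendritic class 85.8 and 38.5 CPM (0.448-fold, 0.289 to 0.696). In that last class it was the 1 of 6 measured members past 1.5-fold (12.4% of genes were lower and 21.2% higher). Its lower value held in the cells with at least 2 of C1qa, C1qb and C1qc, with 90.2 and 49.9 CPM (0.553-fold, 0.319 to 0.988), and in the others, with 81.9 and 16.6 CPM (0.203-fold, 0.0729 to 0.496). These 2 parts held 50 and 60 control and 151 and 80 JQ1 cells.

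Neutrophils differed between the libraries in maturity, and several member values moved with it. Cells with UMIs of at least 2 of the granule genes Camp, Ngp and Ltf, made by immature neutrophils, were 12 of 461 in control and 148 of 633 in JQ1. In the other, mature neutrophils (449 and 485 cells) Mxd1 had 1406 and 2181 CPM (1.55-fold, 1.44 to 1.67), against 0.988-fold over the whole class. In immature cells the control library had 1157 CPM (38 UMIs) and the JQ1 library 585 CPM (531 UMIs). Mxd1 was the 1 of 5 measured members called higher in mature neutrophils (14.9% of genes were higher and 18.4% lower there, and 0 members were lower). Over the whole class 2 of 6 were called higher, Mxi1 and Myc, against 36% of genes, and 0 lower, against 13.6%. Myc, which passed the limit through JQ1 alone, had 5 and 24 UMIs, and 22 of the 24 lay in immature cells. Mature neutrophils had 4 Myc UMIs in control and 2 in JQ1 (0.424-fold, 0.0384 to 2.96). Keratinocyte genes that neutrophils should lack stood at a median of 2.45% and 1.32% of their keratinocyte level in neutrophils. Myc stood at 0.0578 times (0.0188 to 0.135) and 0.0933 times (0.0597 to 0.139) its own keratinocyte level. These Myc values are fractions and not percents. Both lie above those medians, though the control interval holds its median. The part of free RNA in these few Myc UMIs was not tested. Mxi1 in mature neutrophils had 30.2 and 34.5 CPM (1.14-fold, 0.646 to 2.05).

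The rest of the pathway was read in keratinocytes from 9 lists of 132 genes in all. Counts of genes at least 1.5-fold higher or lower are to be read against 12.5% and 4.34% of all measured genes in the class. The corresponding shares were 10.8% and 1.82% in Krt15, 16.7% and 3.23% in Krt13 and 12.7% and 4.14% in Krt16 cells. Beyond the members, the extended network (Mxd3, Mxd4 and the Mlx group of Max-like factors) had 3 of 5 measured, with 0 higher and 0 lower. Mxd4 had 50.9 and 49.1 CPM, and Mlxip, a glucose-sensing partner of Mlx, 10.4 and 15 CPM (1.43-fold). Of 16 cofactors of Myc and Mxd proteins 1 was higher and 0 lower: Ep400, an ATPase of the complex that holds the acetyltransferase Kat5, had 38.6 and 59.1 CPM (1.53-fold, 1.44 to 1.63). Within Krt15, Krt13 and Krt16 cells 0, 2 and 0 of the 16 were higher. Trrap, the scaffold that Myc contacts, had 30 and 42.2 CPM (1.41-fold), Bptf 65.8 and 95 (1.44-fold), and Sin3b, the repressor scaffold of the Mxd proteins, 132 and 114 (0.864-fold). Of 8 measured genes of Myc protein turnover 0 passed 1.5-fold in either direction, in the class or in the 3 subtypes. Usp36, a deubiquitinase of Myc, had 17.0 and 24.1 CPM (1.42-fold), and Pim1, a kinase, 121 and 97.6 CPM (0.804-fold).

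Among genes known as Myc targets, those for ribosome production had a median log2 ratio of 0.16 beside 0.15 over all genes. Of 30 measured ribosome biogenesis genes 2 were higher (Rrp12, 12.1 and 18.3 CPM, and Tcof1, 26.5 and 39.9 CPM) and 0 lower. Within Krt15, Krt13 and Krt16 cells 1, 2 and 4 of the 30 were higher and 0 lower. Of 18 translation and chaperone genes 3 were higher and 0 lower, with a median of 0.04. The 3 were the mitochondrial chaperonins Hspd1 (309 and 469 CPM) and Hspe1 (562 and 884 CPM) and the importin Ipo4 (15.4 and 23.7 CPM), but 0 of the 18 were higher in Krt15 and Krt13 cells and 2 in Krt16 cells. Eif5a, a translation factor, had 1030 and 735 CPM (0.714-fold).

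Nucleotide, polyamine and one-carbon genes had 5 of 18 higher and 0 lower over the class, with a median of 0.37, and 1, 8 and 5 of 18 higher in Krt15, Krt13 and Krt16 cells. These included Cad, the first enzyme of pyrimidine synthesis (15.4 and 30 CPM over the class, 1.95-fold), and the ribonucleotide reductase subunits Rrm1 (42.2 and 75.3 CPM) and Rrm2 (22 and 42.3 CPM). Cell cycle genes had 5 of 11 higher and 0 lower, with a median of 0.54, and 4, 7 and 6 of 11 higher in the 3 subtypes. E2f1, 1 of the 5, had 9.72 and 15.2 CPM and passed the limit of 10 CPM through JQ1 alone. Mcm5, of the replicative helicase, was 2.16-fold higher (21.6 and 46.8 CPM), Id2, an inhibitor of differentiation factors, 2.23-fold (110 and 245 CPM) and Cdc25a, a phosphatase that starts S phase, 1.70-fold (10.9 and 18.5 CPM). Ccnd1, cyclin D1, had 415 and 285 CPM (0.688-fold). The share of cycling keratinocytes was 34.3% in control and 42.6% in JQ1, and its part in these lists was not tested. The markers of cycling cells include Mcm5 and Birc5 of the cell cycle list and Rrm2 and Tyms of the nucleotide list. The share and the lists are therefore not independent.

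In the glycolysis and uptake list 2 of 11 genes were lower over the class, the glycolytic enzymes Ldha (842 and 471 CPM, 0.560-fold) and Eno1 (334 and 174 CPM, 0.521-fold). Neither passed 1.5-fold within a subtype, where Ldha was 0.748-fold, 0.887-fold and 0.718-fold and Eno1 0.732-fold, 0.785-fold and 0.678-fold in Krt15, Krt13 and Krt16 cells. Eno1 has a near-identical copy in the mouse genome, so its counts are uncertain. The lower genes of the list numbered 0, 1 and 1 in these subtypes, the 1 being Hk2, a hexokinase, at 0.541-fold in Krt13 and 0.622-fold in Krt16 cells. The 2 higher genes of the class were the amino acid carriers Slc7a5 (41.4 and 101 CPM, 2.43-fold) and Slc1a5 (20.8 and 38.8 CPM, 1.87-fold), and 2, 2 and 1 genes were higher in the subtypes. Slc3a2, the partner chain of Slc7a5, had 251 and 301 CPM (1.2-fold). Of 8 genes that Myc and Miz1 repress, 1 was higher, Thbs1, thrombospondin (47.3 and 107 CPM), which was also higher in each subtype. The 1 lower gene was Cdkn2b, the Cdk inhibitor p15 (38.0 and 18.6 CPM), and 0 genes of this list were lower in the subtypes, where Cdkn2b was 0.747-fold, 0.983-fold and 0.770-fold. Cdkn1a, p21, had 374 and 321 CPM. In the RefSeq promoters CACGTG occurred in 7 of 24 matched ribosome biogenesis genes, 9 of 18 translation and chaperone genes, 4 of 17 nucleotide genes, 1 of 10 cell cycle genes and 1 of 9 glycolysis and uptake genes, against 8.09% of all 27025 genes with a promoter.

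**Figure D5:**
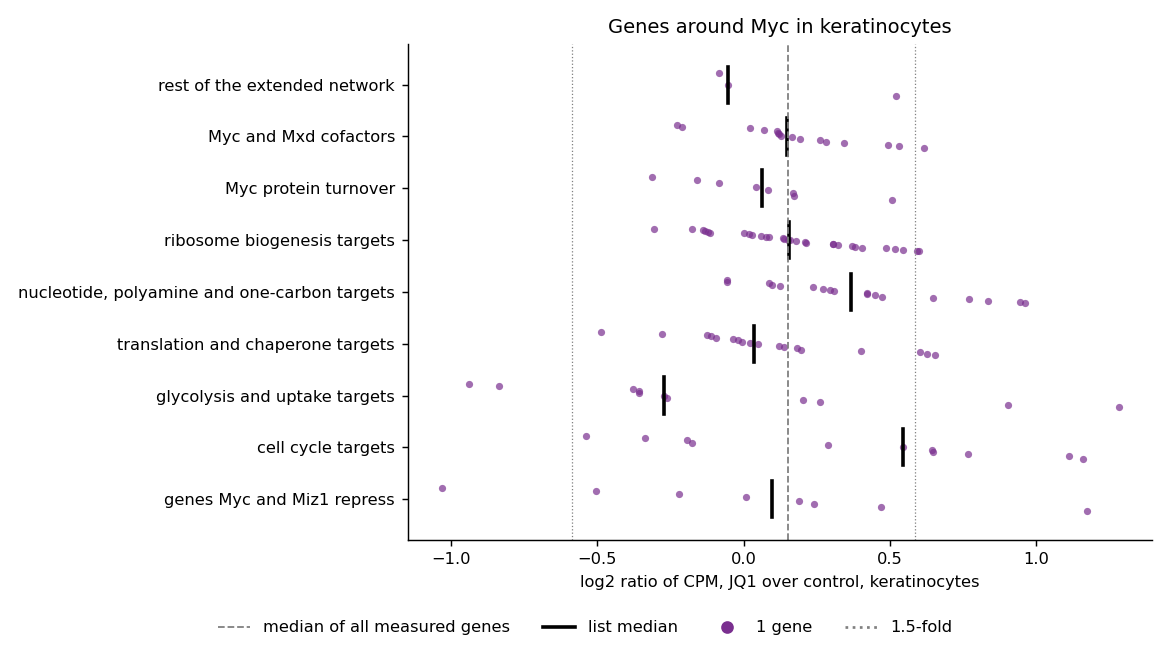
Log2 ratio of the JQ1 to the control library in keratinocytes for the measured genes of 9 lists around Myc; points are genes, black bars the list medians, the dashed line the median of all measured genes (0.15) and the dotted lines 1.5-fold. The ribosome biogenesis median (0.16) lies on that of all genes and the cell cycle median at 0.54.

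The genes whose pattern was most like that of Myc or Mxd1 were found by Pearson correlation of log2(CPM + 1) over 16 points, the 8 classes of both libraries. Points of 1 library share its preparation and depth, so these values are descriptions. For Myc the nearest were Ier5l (0.973), Cbx1 (0.964), Fyttd1 (0.956), Slc25a4 (0.955) and Tbl1x (0.954). Ier5l, a relative of an immediate early gene, had 167 and 116 CPM in endothelial cells, 50.5 and 51.2 in keratinocytes and 1.26 and 5.54 in neutrophils. For Mxd1 they were Mapkapk2 (0.969), Slfn1 (0.965), Plek (0.962), Ccr1 (0.961) and Fgd3 (0.957). Mapkapk2, a kinase downstream of p38, had 785 and 524 CPM in neutrophils and 50.6 and 58.4 CPM in keratinocytes. Among the members, Mxd1 was nearest to Max (0.909) and had -0.70 with Myc. Correlation of ranks (Spearman) gave 0.847 and -0.409 for these pairs. For the named genes it ran from 0.888 (Tbl1x) to 0.979 (Ier5l) with Myc and from 0.679 (Fgd3) to 0.965 (Plek) with Mxd1.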

How the data were processed

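Single-cell RNA was measured in 1 control and 1 JQ1 library (10x 3' v3.1). The matrices the authors deposited hold raw UMI counts per gene and barcode; Cell Ranger 3.1.0 and Seurat 4.0.0 with the build mm10 appear in the submitters' processing notes, while no source used names an annotation release. The lowest barcode total was 500 UMIs in each library.

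Barcodes needed 200 genes and less than 20% of UMIs from mitochondrial genes, and Scrublet (scanpy 1.11.5) removed 119 control (1.44%) and 424 JQ1 (2.93%) doublet calls. The mitochondrial limit was met or passed by 1481 control and 1056 JQ1 barcodes. A cell took the class with most detected markers, at least 3 and at least 2 more than any other. A keratinocyte was Stmn2 or Krt42 type with at least 2 such UMIs and 1 per 10000, and otherwise took the highest percentile rank of Krt15, Krt13 with Krt4, or Krt16 with Krt6a and Krt6b, at least the 50th; ranks within 5 points of each other were found in 99 control and 41 JQ1 Krt15 cells, 158 and 91 Krt13 cells and 137 and 50 Krt16 cells. Cycling cells had at least 3 of 14 markers and 2 such UMIs per 10000.

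The UMI sums of a class in a library were divided by its total to give CPM; they carry exact Poisson intervals, exact conditional intervals for ratios and Clopper-Pearson intervals for shares (95%). Genes needed 20 UMIs in all and 10 CPM in 1 library to be measured, and 1.5-fold to be called. With 1 library per group no test was possible. The ratio table was tested on simulated data with Poisson counting error alone. That setting matches how the intervals are built and holds no variation between cells, mice or libraries. All 8 members, up to 3 measured genes per list and direction with the largest change by the interval bound nearest 1, and the 5 genes of highest correlation with at least 20 CPM in 1 class were named. The members, markers and lists were chosen with earlier results of these data known, and the splits of neutrophils and macrophages after seeing the data. Clustering used leidenalg 0.10.2, igraph 0.11.9 and scikit-learn 1.9.0, intervals scipy 1.17.1 and numpy 2.4.6, tables pandas 2.3.3 and figures matplotlib 3.10.9, all under Python 3.11.15.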

Additional observations from a re-analysis of the deposited data

Results flagged for a closer look

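Mxi1 was past 1.5-fold in opposite directions in different cell classes with intervals that did not hold 1. It was 2.06-fold higher in JQ1 in gland cells and 1.87-fold higher in neutrophils, and 0.448-fold in the macrophage, monocyte or dendritic class. In gland cells and neutrophils 36.5% and 36% of all measured genes were that much higher, and 12.4% were that much lower in the macrophage class. Myc also had ratios on both sides, 2.11 in neutrophils and 0.626 in gland cells, but its neutrophil interval (0.790 to 7.09) held 1. The differences between the classes were not tested, since each rests on 1 library per treatment. Gland cells numbered 105 in control with 21 Mxi1 UMIs, and with every cell weighted equally the gland log2 ratio was 0.36 in place of 1.05. The mix of gland clusters also differed between the libraries. In mature neutrophils alone the log2 ratio was 0.19 in place of 0.90. The value of the macrophage class held its direction in cells with and without C1q genes (0.553-fold and 0.203-fold).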

How the results depend on the processing

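The 68 member ratios with enough counts were recomputed 578 times under other cell filters, with doublet calls kept, by joint Leiden clusters, with stricter gates, other scalings or other weights. Of these values 544 lay inside the counting interval of the reported ratio and 32 outside it; the other 2 were ratios past 1.5-fold that went to the other side of 1, Mxd1 in Krt13 keratinocytes (log2 ratio -0.10 as the mean of per-cell CPM) and Myc in neutrophils (-1.24 in mature cells alone). Myc in keratinocytes, reported at 0.39, was 0.24 with median-of-ratios size factors, 0.23 as the mean of per-cell CPM and 0.037 with equal weight of subtypes, where Mycl was 0.33 in place of 0.96. Mxd1 in neutrophils, reported at -0.02, was -0.25 with size factors, 0.39 as the mean of per-cell CPM and 0.63 in mature cells alone. The percent of keratinocytes with a Myc UMI was 20.7 (control) and 23.5 (JQ1) at 2000 UMIs per cell and 65.9 and 59.0 unthinned. Myc UMIs per Mxd1 UMI in JQ1 neutrophils was 0.0220 by clusters. Of the ribosome biogenesis genes 0 were higher at a fold of 2 or with size factors and 1 when the UMIs of Krt15 and Krt13 cells alone were summed together, in place of 2. The causes were not tested beyond what each setting changes. No Leiden cluster took the Krt16 name, so that subtype has no value by clusters.

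No paired analysis was possible because each treatment has 1 library. The values without the duct-type cluster and for mature neutrophils alone were chosen after seeing the data. Many ratios in gland, T, macrophage and neutrophil classes rest on under 50 control UMIs, and intervals leave out differences between mice, tumours and preparations.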
